A study of Homo sapiens with 6 samples.

Results

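The insulin and IGF axis is described here through 10 genes, which are the receptors INSR and IGF1R, the receptor substrates IRS1 and IRS2, and the IGF-binding protein genes IGFBP2 to IGFBP7. They are 10 of the 24462 gene symbols counted in bulk RNA-seq of 1CT and 1CT-A. Each of the 10 has enough counts to be tested. The 10 were picked by name, with earlier results of these data known. 1CT is a human colon epithelial cell line immortalized with CDK4 and telomerase, labelled WT, and 1CT-A is its APC depleted version, labelled APC KD. There are 3 libraries of each, from untreated cells. The 1CT libraries stand for the parental cells and not for a scrambled shRNA control, and neither the labels nor the methods say whether 1CT-A is 1 clone or whether the libraries come from separate cultures. The p values therefore measure the spread between these libraries only, which may be technical. Both cell lines grow in a medium with 10 μg/ml insulin, 20 ng/ml EGF, 1 μg/ml hydrocortisone, 2 μg/ml transferrin, 5 nM sodium selenite and 2% FBS by the sample labels, while the methods text writes mg in place of μg for the hormones and transferrin.

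Insulin and the insulin-like growth factors IGF1 and IGF2 act through the related tyrosine kinase receptors INSR and IGF1R. The active receptors phosphorylate IRS1 and IRS2, which recruit phosphoinositide 3-kinase and so turn on AKT, and AKT in turn keeps FOXO transcription factors out of the nucleus and relieves the brake on mTOR complex 1. At the high concentrations used in culture media insulin can also act through IGF1R. The IGF-binding proteins are secreted, hold IGF1 and IGF2 away from the receptor or deliver them to it, and do not bind insulin well, apart from IGFBP7, which binds the IGFs only weakly. In colon epithelium the axis is known for its part in growth and crypt cell proliferation.

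The libraries hold 7788679 to 8452258 counts in 1CT and 11158108 to 12602988 in 1CT-A, so depth differs between the cell lines by a factor of 1.43. They are 3′ libraries, in which a transcript gives about 1 read near its end whatever its length, so levels are given as CPM, the count scaled to the library total, and are not divided by gene length. APC, the targeted gene, has 46.6 ± 2.75 CPM in 1CT against 31.9 ± 2.21 CPM in 1CT-A (SD, n = 3 each), a log2 fold change of -0.58 (edgeR adjusted p = 1.8e-04). The markers of the labelled epithelial identity are present only in part and at low levels, and mesenchymal markers have far higher summed levels in both cell lines. Of 12 colon epithelial markers, 7 have at most 3 counts in every library, and EPCAM, VIL1, CDX1 and MUC2 are at 0 throughout. CDH1 has at most 4 counts and KRT8 at most 14 counts in a library. CLDN7 has 196 to 308 counts and KRT18 has 36 to 109 counts per library, and KRT19 has 20 to 34 counts in 1CT and 0 in 1CT-A. Of the 12 markers, 9 have too few counts to be tested. The 3 tested are KRT18, KRT19 and CLDN7. KRT19 passes the count filter only through 1CT, where it is high, so it could only come out lower. KRT18 (log2 fold change -1.19) and CLDN7 (-0.40) are also lower in 1CT-A, beside 26.0% lower among all genes tested. All 11 mesenchymal markers are counted in both cell lines, and 3 of them are higher and 5 lower in 1CT-A, with COL3A1 5.16-fold higher and S100A4 4.23-fold lower. The epithelial markers sum to 40.9 to 45.1 CPM per 1CT library against 23.5 to 30.2 CPM per 1CT-A library, the mesenchymal markers to 4838 to 5870 CPM against 4415 to 4737 CPM, and 9 blood and endothelial markers to 11.0 to 14.6 CPM against 8.57 to 10.2 CPM. The part of these markers in the results was not tested, and in bulk RNA fewer cells of a type and less RNA per cell cannot be told apart.

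All 10 genes pass an adjusted p of 0.05 in the comparison of 1CT-A with 1CT (quasi-likelihood test of edgeR), 3 as higher and 7 as lower. Of these, IGFBP5 has 3, 35 and 6 counts in 1CT and passes the count filter only through 1CT-A, where it is high. Its call as higher is therefore partly set by the filter. Among all 12514 genes tested, 51.0% differ, 25.0% higher and 26.0% lower, and 9.92% are both called and at least 2-fold lower. The median log2 fold change of the 10 genes is -0.65, beside -0.01 over all tested genes. The levels do not overlap between the cell lines for 9 of the 10 genes, beside 59.7% of all tested genes. The 10 genes were chosen with earlier results of these data known, so these shares are not a test of the set. IRS1, IRS2 and IGFBP5 are the genes that rise, and both receptors and the other 5 binding protein genes fall.

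**Figure D1:**
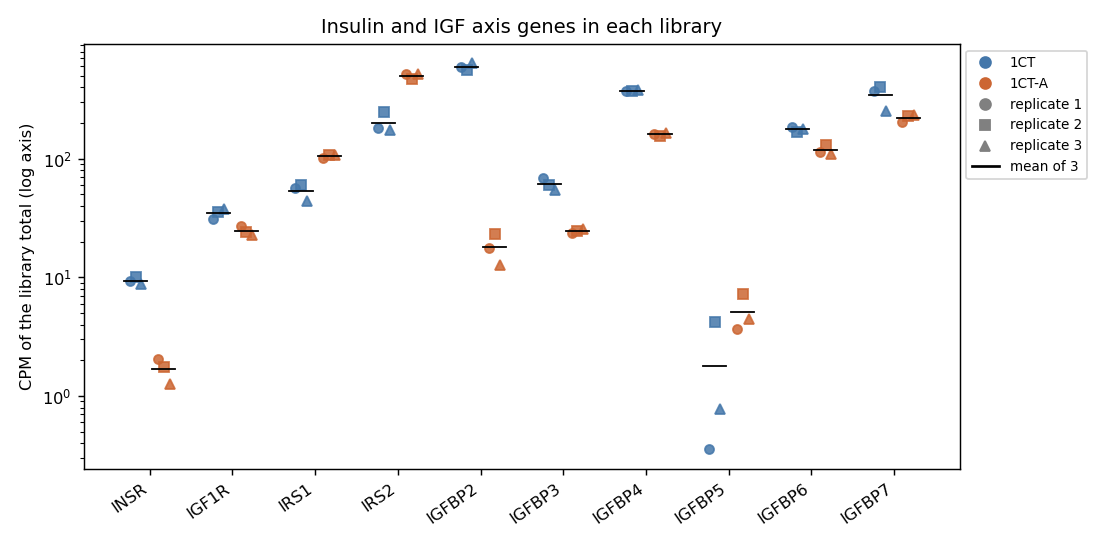
Level of each of the 10 genes in each library, as CPM of the library total on a log axis, with 1CT in blue, 1CT-A in orange, the marker shape giving the replicate and a black line at the mean of 3. IGFBP2 lies between 555 and 637 CPM in 1CT and between 12.8 and 23.0 CPM in 1CT-A, and IGFBP5 is the gene whose cell lines overlap.

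The promoters of 5 genes are shown, those of IRS1, IRS2 and INSR because the substrates and the receptor change in opposite directions, and those of IGFBP2 and IGFBP5 because these genes are neighbours. The printed bases are the 250 bases upstream of the start site, 5′ to 3′ on the gene's strand, from RefSeq on GRCh38.p14, at the start that the GENCODE canonical transcript also uses. IRS1 is on the minus strand at chr2:226799821-226800070, IRS2 on the minus strand at chr13:109786584-109786833, INSR on the minus strand at chr19:7294415-7294664, IGFBP2 on the plus strand at chr2:216633170-216633419 and IGFBP5 on the minus strand at chr2:216695550-216695799. Capitals mark matches, on either strand, to the GC box GGGCGG and to the insulin response element CAAAACA, the letters known from genes that insulin represses through FOXO.
IRS1: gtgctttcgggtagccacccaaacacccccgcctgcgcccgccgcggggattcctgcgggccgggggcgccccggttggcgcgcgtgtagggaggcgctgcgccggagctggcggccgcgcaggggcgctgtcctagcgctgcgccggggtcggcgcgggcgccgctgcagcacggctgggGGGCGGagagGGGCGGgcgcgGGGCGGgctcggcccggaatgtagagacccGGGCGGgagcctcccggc
IRS2: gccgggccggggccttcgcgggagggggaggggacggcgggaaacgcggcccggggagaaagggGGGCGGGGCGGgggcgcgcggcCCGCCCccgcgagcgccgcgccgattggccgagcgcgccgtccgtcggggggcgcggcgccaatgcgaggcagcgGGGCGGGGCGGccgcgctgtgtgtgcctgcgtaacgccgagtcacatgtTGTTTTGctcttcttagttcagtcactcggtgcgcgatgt
INSR: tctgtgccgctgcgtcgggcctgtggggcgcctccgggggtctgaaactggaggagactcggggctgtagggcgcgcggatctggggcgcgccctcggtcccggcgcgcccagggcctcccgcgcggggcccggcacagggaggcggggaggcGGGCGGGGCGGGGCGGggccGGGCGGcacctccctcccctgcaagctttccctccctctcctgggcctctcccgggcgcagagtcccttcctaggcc
IGFBP2: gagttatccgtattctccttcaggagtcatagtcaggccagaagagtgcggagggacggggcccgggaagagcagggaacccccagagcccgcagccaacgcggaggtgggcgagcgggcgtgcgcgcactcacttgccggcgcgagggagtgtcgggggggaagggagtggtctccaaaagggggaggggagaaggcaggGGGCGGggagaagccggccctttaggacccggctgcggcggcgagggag
IGFBP5: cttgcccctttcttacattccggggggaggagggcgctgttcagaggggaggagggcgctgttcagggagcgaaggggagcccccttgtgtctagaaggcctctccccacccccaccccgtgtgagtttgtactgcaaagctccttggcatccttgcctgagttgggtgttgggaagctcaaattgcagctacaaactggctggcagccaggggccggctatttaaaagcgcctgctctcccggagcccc

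GC boxes stand in 8 of the 9 promoters that could be matched, beside 42.6% of 35116 promoters in the table, with up to 5 in IRS2 and none in IGFBP5. The 9 windows are 61.2 to 81.2% G and C, with IGFBP5 at 61.2%. The share over all promoters is not matched for this, and the part of base composition was not tested. The insulin response element is found in IRS2 alone of the 9, as TGTTTTG starting 40 bases before the start site, beside 4.30% of all promoters. The FOXO element GTAAACA is found in IGFBP6 alone (2.98% of all promoters) and the TATA box TATAAA in IGFBP4 alone (10.7%). Neither the TCF/LEF element CTTTGAT (2.26% of all promoters) nor the E-box CACGTG (6.34%) is found in the 9 windows. A match is a run of letters and not a shown binding site, and no match says only that these letters are not in this window. IGFBP7 has no entry in the table and was not searched.

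The insulin receptor gene INSR, on chromosome 19 from 7112255 to 7294414 (GRCh38), is at 9.35, 10.0 and 8.73 CPM in the 1CT libraries and at 2.06, 1.76 and 1.27 CPM in the 1CT-A libraries. The counts behind these values are 79, 83 and 68 in 1CT and 23, 20 and 16 in 1CT-A, so that INSR is the receptor gene with few reads in either cell line. Every 1CT-A library is below every 1CT library, and INSR falls 5.68-fold (log2 fold change -2.51, standard error 0.22, edgeR adjusted p = 1.2e-06). IGF1R, on chromosome 15 from 98648539 to 98964530, encodes the receptor for IGF1 and IGF2. Its level is 31.2, 35.9 and 37.4 CPM in 1CT and 26.9, 24.0 and 22.5 CPM in 1CT-A. The cell lines do not overlap here either, but the fall is smaller, 1.46-fold (log2 fold change -0.55, standard error 0.11, edgeR adjusted p = 0.00101).

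Since both receptor genes fall by different amounts, their ratio within a library changes as well, and this ratio does not depend on any scaling between libraries. There are 3.34, 3.58 and 4.28 IGF1R reads for each INSR read in the 1CT libraries. In the 1CT-A libraries there are 13.0, 13.7 and 17.8. The ratio is 3.95-fold higher in 1CT-A and the libraries of the cell lines do not overlap (exact permutation test, two-sided, p = 0.1, adjusted over 2 ratios p = 0.1, where 0.1 is the smallest p that 3 libraries against 3 allow).

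The substrate genes go the other way. IRS1, on chromosome 2 from 226731312 to 226799820, encodes the first described docking protein of the insulin receptor. It is at 56.7, 60.5 and 44.04 CPM in 1CT and at 101, 108 and 108 CPM in 1CT-A, and every 1CT-A library is above every 1CT library. It rises 1.91-fold (log2 fold change 0.93, standard error 0.10, edgeR adjusted p = 7.2e-06). IRS2, on chromosome 13 from 109752695 to 109786583, encodes a related docking protein. It is at 180, 248 and 176 CPM in 1CT and at 519, 465 and 515 CPM in 1CT-A. Replicate 2 is the highest of the 1CT libraries and is still below each 1CT-A library. IRS2 rises 2.42-fold (log2 fold change 1.27, standard error 0.11, edgeR adjusted p = 1.0e-06).

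IRS2 has more reads than IRS1 in every library. There are 0.314, 0.244 and 0.251 IRS1 reads for each IRS2 read in 1CT, and 0.194, 0.231 and 0.209 in 1CT-A. The ratio is 0.788-fold in 1CT-A and every 1CT-A library is below every 1CT library, although the replicates numbered 2 lie close together (exact permutation test, two-sided, p = 0.1, adjusted over 2 ratios p = 0.1).

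**Figure D2:**
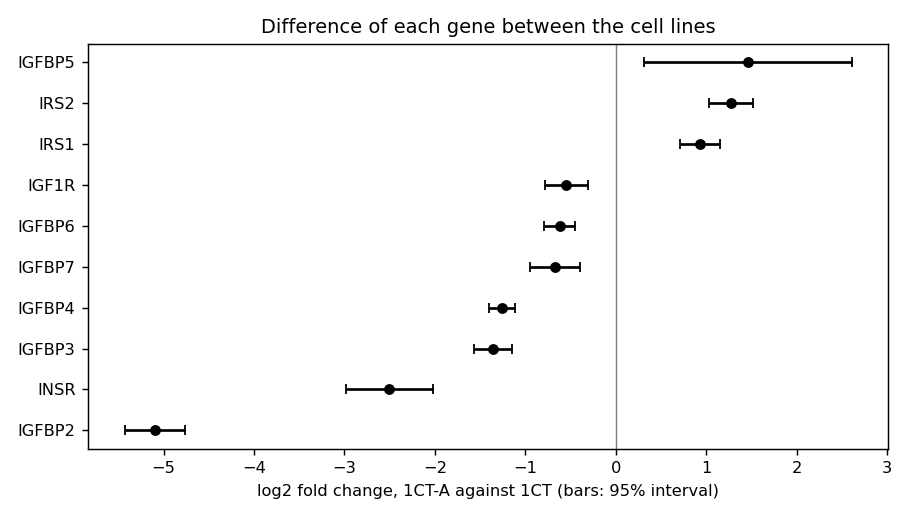
Log2 fold change of each of the 10 genes, 1CT-A against 1CT, from edgeR's fit across all genes, with bars for the 95% interval. IGFBP2 (-5.10) and INSR (-2.51) lie farthest to the left, and IGFBP5 has the widest interval, from 0.32 to 2.61.

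Among the binding proteins, IGFBP2 has the largest difference of the 10 genes. It encodes a secreted protein that binds IGF2 more tightly than IGF1. IGFBP2 is at 588, 555 and 637 CPM in 1CT and at 17.8, 23.0 and 12.8 CPM in 1CT-A, with 4597 to 4968 counts per 1CT library and 161 to 262 per 1CT-A library. The cell lines are far apart, and IGFBP2 falls 34.3-fold (log2 fold change -5.10, standard error 0.15, edgeR adjusted p = 1.2e-10). The genes with the most similar levels across the 6 libraries, by the distance between centred log2 CPM values among 8223 genes averaging 10 CPM or more, are SFRP1 (distance 0.50), a secreted Wnt antagonist, TRPV2 (0.55), a cation channel, and KRT7 (0.64), a keratin of simple epithelia. SFRP1 has 78.1 ± 3.05 CPM in 1CT against 2.39 ± 0.609 CPM in 1CT-A (SD, n = 3 each), a log2 fold change of -5.08.

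IGFBP2 lies on chromosome 2 from 216632828 to 216664436, on the plus strand, and IGFBP5 lies next to it from 216672105 to 216695549 on the minus strand, so that the genes end toward each other with 7668 bases between them. IGFBP5 encodes a binding protein that also attaches to extracellular matrix. It is at 0.355, 4.23 and 0.770 CPM in 1CT, from 3, 35 and 6 counts, and at 3.67, 7.197 and 4.44 CPM in 1CT-A, from 41, 82 and 56 counts. Replicate 2 of 1CT is above replicate 1 of 1CT-A, so the cell lines overlap. In the fit it rises 2.76-fold (log2 fold change 1.46, standard error 0.53, edgeR adjusted p = 0.0344). It is 3.13 without 1CT replicate 2, and the call is lost without 1CT replicate 1 (log2 fold change 0.97), 1CT replicate 3 (1.14), 1CT-A replicate 2 (1.15) or 1CT-A replicate 3 (1.56), and in DESeq2 (1.48, adjusted p = 0.214). In the fit the neighbours IGFBP2 and IGFBP5 thus change in opposite directions. The rise of IGFBP5 rests on few reads, and the gene could be tested only through 1CT-A, where it is high.

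IGFBP3 and IGFBP4 fall by similar amounts. IGFBP3, on chromosome 7 from 45912245 to 45921874, encodes the main carrier of IGFs in blood. It is at 68.9, 59.9 and 54.7 CPM in 1CT and at 23.5, 24.4 and 25.6 CPM in 1CT-A, with no overlap. It falls 2.56-fold (log2 fold change -1.36, standard error 0.10, edgeR adjusted p = 2.2e-07). IGFBP1, its neighbour with 18584 bases between them, has at most 1 count in any library. IGFBP4, on chromosome 17 from 40443450 to 40457725, encodes a binding protein known mainly as an inhibitor of IGF action. It is at 369, 369 and 383 CPM in 1CT and at 161, 155 and 166 CPM in 1CT-A, with no overlap. It falls 2.39-fold (log2 fold change -1.26, standard error 0.07, edgeR adjusted p = 1.2e-08).

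IGFBP6 and IGFBP7 fall less. IGFBP6, on chromosome 12 from 53097436 to 53102345, encodes the binding protein with the strongest preference for IGF2. It is at 183, 167 and 179 CPM in 1CT and at 114, 129 and 110 CPM in 1CT-A, with no overlap. It falls 1.54-fold (log2 fold change -0.62, standard error 0.08, edgeR adjusted p = 3.1e-05). IGFBP7, on chromosome 4 from 57030773 to 57110385, encodes a secreted protein of endothelium and stroma that binds IGFs weakly. It is at 374, 405 and 254 CPM in 1CT and at 203, 227 and 234 CPM in 1CT-A. Replicate 3 is the lowest of the 1CT libraries, and it is closer to 1CT-A than to the other 1CT libraries without overlapping it. IGFBP7 falls 1.60-fold (log2 fold change -0.67, standard error 0.13, edgeR adjusted p = 7.3e-04). Its end shares 386 bases with POLR2B on the opposite strand, and since the use of strand in counting is not stated, reads there cannot be assigned. POLR2B is at 189, 214 and 123 CPM in 1CT and 198, 211 and 226 CPM in 1CT-A, so that replicate 3 is also the lowest 1CT library for it (log2 fold change 0.23, edgeR adjusted p = 0.195).

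Summed over IGFBP2 to IGFBP7, the binding protein genes take 1583, 1560 and 1508 CPM in the 1CT libraries and 523, 566 and 552 CPM in the 1CT-A libraries. Without IGFBP2 the sums are 957 ± 74.5 CPM (SD, n = 3) and 529 ± 20.8 CPM (SD, n = 3), so the sum is lower in 1CT-A also when its largest change is left out. The make-up of the sum differs as well. IGFBP2 takes 38.3 ± 3.48% (SD, n = 3) of the binding protein reads in 1CT and 3.26 ± 0.885% (SD, n = 3) in 1CT-A. IGFBP7 takes 22.1 ± 4.72% and 40.4 ± 1.80% (SD, n = 3 each), and IGFBP6 takes 11.4 ± 0.613% and 21.5 ± 1.53%. IGFBP4 takes 24.1 ± 1.10% and 29.4 ± 1.81%, while IGFBP3 takes 3.94 ± 0.372% and 4.48 ± 0.164%. IGFBP2 has the most reads of the 6 genes in each 1CT library, and IGFBP7 has the most in each 1CT-A library. The shares of a library add up to the whole, so they are not independent of each other.

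**Figure D3:**
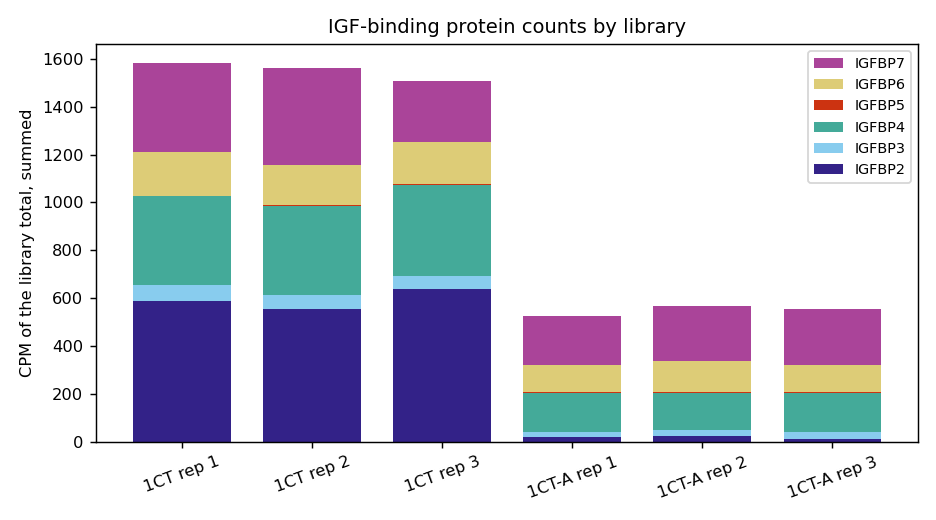
Stacked levels of the 6 binding protein genes in each library, as CPM of the library total, with 1 bar per library. The sum reaches 1508 to 1583 CPM in the 1CT bars but 523 to 566 CPM in the 1CT-A bars, and the IGFBP2 segment at the base, 555 to 637 CPM in 1CT, is 12.8 to 23.0 CPM in 1CT-A.

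Of the ligands, IGF2 is the gene with reads. INS is at 0 in every library, where 3 counts would be 0.238 to 0.385 CPM, and IGF1 has at most 2 counts. These limits cover counting error only, since the files hold no molecular identifiers. IGF2 is at 14.9, 68.8 and 23.5 CPM in 1CT and at 99.03, 119 and 93.9 CPM in 1CT-A. Every 1CT-A library is above every 1CT library, and replicate 2 stands above the other 1CT libraries, as it does for IGFBP5. IGF2 rises 2.83-fold (log2 fold change 1.502, standard error 0.35, edgeR adjusted p = 0.00319). The log2 fold change depends on the 1CT library left out. It is 2.40 without 1CT replicate 2, 1.13 without 1CT replicate 1 and 1.29 without 1CT replicate 3, and the gene stays called in each. In DESeq2 the adjusted p is 0.0438. The read-through gene INS-IGF2 has the same count as IGF2 in all 6 libraries, so the genes cannot be told apart.

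By the same measure of likeness as for IGFBP2, the genes most similar to IGFBP5 among 8224 are IGF2 and INS-IGF2, each at a distance of 0.78, and ACTG2 (1.17), a smooth muscle actin gene. ACTG2 has 11.4 ± 9.67 CPM in 1CT against 51.1 ± 1.60 CPM in 1CT-A (SD, n = 3 each). For each IGFBP2 read there are 0.0254, 0.124 and 0.0369 IGF2 reads in the 1CT libraries and 5.55, 5.18 and 7.35 in the 1CT-A libraries, a ratio that was chosen after the values were seen and was not tested.

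The further genes of the pathway are described through 9 lists of 85 genes in all, which leave out the 10 genes above. Of the 74 tested, 14 rise, 23 fall and 37 are not called, beside the 51.0% called among all genes tested, with a median log2 fold change of -0.03. Among the further receptors and carriers, IGF2R, which takes IGF2 up for breakdown, has 115 ± 20.1 CPM in 1CT against 110 ± 5.36 CPM in 1CT-A (SD, n = 3 each). The difference on the log2 scale is -0.11 with an interval from -0.33 to 0.12 (edgeR adjusted p = 0.423), and without 1CT replicate 3 it is -0.23 and is called (adjusted p = 0.0132). INSRR and IGFALS are at 0, and IGFBPL1 has at most 1 count.

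The list of enzymes that cut IGF-binding proteins, with the stanniocalcins that inhibit pappalysins, has 5 lower genes, 0 higher genes and 1 uncalled gene among 6 tested, beside 26.0% lower and 25.0% higher among all genes tested. PAPPA, the protease of IGFBP4, falls from 43.99 ± 2.20 to 24.9 ± 0.962 CPM (SD, n = 3 each), a log2 fold change of -0.86 (edgeR adjusted p = 5.5e-06). Its inhibitors STC1 and STC2 fall by like amounts. STC1 goes from 74.0 ± 3.39 to 39.9 ± 2.95 CPM (log2 fold change -0.93) and STC2 from 1420 ± 66.7 to 849 ± 11.2 CPM (log2 fold change -0.78, edgeR adjusted p at most 1.4e-06 for both). ADAM12 falls with a log2 fold change of -1.44 and HTRA1 with -0.64, while ADAM9 has 0.22 (edgeR adjusted p = 0.471, and called at 0.27 with no filter on low counts). PAPPA2 has at most 6 counts in a library.

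Among the 10 genes that damp receptor signaling, 4 rise, 2 fall and 3 are not called, beside 51.0% called among all genes tested, and GRB14 has 6, 1 and 2 counts in 1CT and 0 in 1CT-A. SOCS1, a suppressor of cytokine signaling that also binds the insulin receptor and IRS proteins, is at 0.710, 2.05 and 1.54 CPM in 1CT and at 5.11, 5.79 and 6.19 CPM in 1CT-A. It rises 3.86-fold (log2 fold change 1.95, standard error 0.30, edgeR adjusted p = 1.3e-04). SOCS3 (log2 fold change 0.60), PTPRF (0.53) and PTPN2 (0.31) rise less, and the call of SOCS3 is lost in DESeq2 (adjusted p = 0.159) and without 1CT-A replicate 2 (0.52), and that of PTPN2 without 1CT replicate 3 (0.22) or 1CT-A replicate 2 (0.31) or 3 (0.28). SOCS2 falls from 9.30 ± 1.83 to 3.80 ± 0.479 CPM (SD, n = 3 each), a log2 fold change of -1.33, and ENPP1, an inhibitor of the insulin receptor, falls with -0.81, a call lost without replicate 1 of 1CT (-0.73) or of 1CT-A (-0.68). PTPN1, the phosphatase of the insulin receptor, has a log2 fold change of -0.03 with an interval from -0.19 to 0.13. GRB10 (0.15) and TRIB3 (0.10) are not called either.

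The counts for the adaptor, PI3K and AKT, and mTOR lists stand beside 25.0% higher and 26.0% lower among all genes tested. Of 13 adaptors 1 is higher, 2 are lower and 7 are not called among the 10 tested. SHC1 has the largest change (log2 fold change -0.88, edgeR adjusted p = 6.8e-07). In the PI3K and AKT list 1 of 17 genes is higher, 5 are lower and 11 are not called. PIK3CD, a catalytic subunit of phosphoinositide 3-kinase, falls from 63.7 ± 7.83 to 28.9 ± 2.12 CPM (SD, n = 3 each), a log2 fold change of -1.18 (edgeR adjusted p = 1.4e-06). In the mTOR list 4 of 12 genes are higher, 3 are lower and 5 are not called. DEPTOR, an inhibitor of mTOR, has 13 to 19 counts in 1CT and 5 to 14 in 1CT-A, a log2 fold change of -1.18 (edgeR adjusted p = 0.0225, and 0.0688 in DESeq2), and the call is lost without 1CT replicate 1 (-1.004), 1CT-A replicate 1 (-0.90) or 1CT-A replicate 3 (-1.14).

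The FOXO list has 3 higher and 4 lower genes among 15, a share near the 51.0% called among all genes tested. FOXO1 is at 6.86, 8.33 and 6.80 CPM in 1CT and at 0.179, 0.702 and 0.714 CPM in 1CT-A, from 53 to 69 and from 2 to 9 counts. It falls 13.7-fold (log2 fold change -3.77, standard error 0.33, edgeR adjusted p = 1.0e-06), and no library of 1CT-A comes near those of 1CT. FOXO1 passes the count filter only through 1CT, where it is high, and the size of its fall rests on few 1CT-A reads. FOXO3 has more reads than FOXO1 and is not called. It has 75.5 ± 5.56 CPM in 1CT against 70.1 ± 4.47 CPM in 1CT-A (SD, n = 3 each, log2 fold change -0.15, edgeR adjusted p = 0.181). FOXO4 is not called either, at 5.04 ± 1.27 against 3.52 ± 0.585 CPM (log2 fold change -0.55, edgeR adjusted p = 0.0750). The called target genes are PDK4, CITED2 and GADD45A (log2 fold change -0.35), which fall, and FBXO32, CDKN1B (0.66) and SOD2 (0.44), which rise. PDK4, a kinase that blocks pyruvate oxidation, falls from 2.995 ± 1.10 to 0.884 ± 0.146 CPM (log2 fold change -1.79), and the transcriptional cofactor gene CITED2 falls from 183 ± 47.0 to 87.6 ± 4.31 CPM (log2 fold change -1.10). FBXO32, a ubiquitin ligase of muscle wasting, rises from 3.41 ± 0.514 to 9.03 ± 2.18 CPM (log2 fold change 1.36, edgeR adjusted p = 2.6e-04). INSR and IRS2, which FOXO factors are known to induce in other cells, change in opposite directions, as given above. The part of FOXO factors in any of these changes was not tested.

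IGF2BP1, which encodes an RNA-binding protein named for binding the IGF2 mRNA, falls from 95, 138 and 115 counts in the 1CT libraries to 5, 18 and 10 in the deeper 1CT-A libraries. It falls 15.4-fold (log2 fold change -3.94, standard error 0.30, edgeR adjusted p = 3.0e-07), with no overlap. IGF2BP1 too passes the count filter only through 1CT, so the size of its fall rests on few 1CT-A reads. IGF2BP2 falls with -0.62 (edgeR adjusted p = 1.1e-05), and IGF2BP3 has -0.02 with an interval from -0.21 to 0.18.

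**Figure D4:**
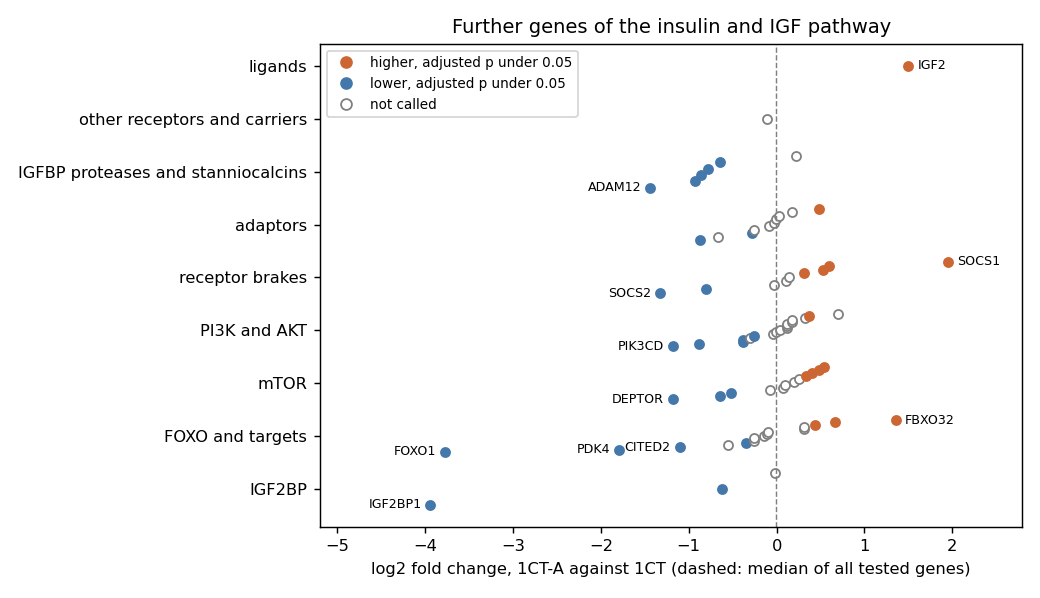
Log2 fold change of the 74 tested genes of the 9 pathway lists, 1CT-A against 1CT, with 1 point per gene, orange for higher, blue for lower and open for genes that are not called, and a dashed line at the median of all tested genes (-0.01). Called genes past a log2 fold change of 1 in either direction are named, with IGF2BP1 (-3.94) and FOXO1 (-3.77) farthest to the left and SOCS1 (1.95) farthest to the right.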

How the data were processed

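By the labels, the bulk RNA-seq used QuantSeq 3′ kits on 500 ng total RNA for each of the 6 libraries. The authors deposited raw counts per gene symbol, 1 file per library, without normalization or pooling. The submitters' processing notes list Bowtie2, edgeR and hg19. The counting tool, the annotation and the use of strand are not given in the sources used here. Counts of repeated symbols were summed (286 of 24462 symbols, none of the genes reported here). CPM values are counts scaled to each file's total. Positions come from GENCODE release 44 on GRCh38, not from the build of the counts. The annotation serves to describe the genes.

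edgeR 4.0.16 in R 4.3.3 compared 1CT-A with 1CT by the quasi-likelihood test, with TMM factors (0.975 to 1.02), filterByExpr with a minimum count of 10 and Benjamini-Hochberg adjustment over 12514 genes. Standard errors are the fold change divided by the root of its F value, and 95% intervals use the test's degrees of freedom. The fit was tested on simulated counts. Chi-square per degree of freedom between replicates is 3.11 to 9.00, more than sampling noise gives. Same-numbered libraries correlate at -0.152, 0.211 and -0.134 in their deviations over 8224 genes. With so few libraries this cannot settle whether the numbers mark pairs, which is not stated, and the main fit treats the libraries as unpaired. Alternatives were DESeq2 1.42.0, limma-voom 3.58.1, other scalings and filters, thinning to the lowest total, the replicate block and each library left out. Leaving out INS-IGF2 was added after the data were seen.

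Named are the 10 genes, APC, all genes of 5 lists, and from the adaptor, PI3K and AKT, mTOR and FOXO lists the called genes with an absolute log2 fold change of at least 1, at most 4 per list, or else the largest called gene. Genes of similar pattern are the 3 closest to the largest rise and the largest fall. POLR2B, INS-IGF2, FOXO3, FOXO4, CDKN1B, SOD2, GADD45A, the marker genes given, the ratio of IGF2 to IGFBP2 and the promoter motifs were chosen after values were seen. The members and lists were chosen with earlier results of these data known.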

Additional observations from a re-analysis of the deposited data

How the results depend on the processing

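Of 149 values of the 10 genes under the alternatives, 144 keep their direction and their side of the threshold, and the other 5 are losses of the IGFBP5 call. IGFBP5 could not be tested under the filter of 10 counts in every library. The number of the 10 genes called is 9 or 10 under every alternative, including 9 to 10 with each library left out and 9 at an adjusted p under 0.01, and the number of all genes called is 5364 to 7238 (4671 at an adjusted p under 0.01). The log2 fold change of INSR stays between -2.67 and -2.32, that of IRS2 between 1.20 and 1.45 and that of IGFBP2 between -5.31 and -4.89. With the replicate block 10 of the genes and 6091 of all genes are called. Among the genes run under the alternatives (the 10 genes, APC and the named genes of the pathway lists) the block changes no call. POLR2B, IRAIN, IGF2BP2-AS1, SFRP1, FOXO3, FOXO4, CDKN1B, SOD2, GADD45A and the markers were not run. Directions reverse only for uncalled genes. PTPN1 has 0.0093 with library size only and 0.016 with no filter. IGF2BP3 has 0.022 with library size only, 0.029 with no filter and 0.028 with thinned libraries. With 1 library left out, ADAM9 ranges from -0.074 to 0.51, PTPN1 from -0.066 to 0.051, TRIB3 from -0.021 to 0.22 and IGF2BP3 from -0.047 to 0.046, and the negative value of ADAM9 and the positive value of PTPN1 come without 1CT replicate 3. The cause of these changes was not tested. Depth limits the genes with fewer than 100 counts in every library, among them INSR, IGFBP5, DEPTOR, FOXO1, SOCS1, SOCS2, ENPP1, PDK4, IRAIN, IGF2BP2-AS1, KRT19 and H19, and IGF2BP1 in 1CT-A. FOXO1, IGF2BP1, PDK4, DEPTOR, IGF2BP2-AS1, TRPV2, KRT7 and KRT19 pass the count filter only through 1CT, where they are high. IGFBP5 and SOCS1 pass it only through 1CT-A, where they are high.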

Other observations

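3 RNAs that neighbour or oppose genes of the axis were looked at after the values were seen. IRAIN, an antisense RNA named for its place within IGF1R, has 77, 67 and 60 counts in 1CT and 50, 34 and 46 in 1CT-A, and falls (log2 fold change -1.20, standard error 0.20, edgeR adjusted p = 2.5e-04), a larger fall than that of IGF1R (-0.55), although the difference between them was not tested. IGF2BP2-AS1, named as antisense to IGF2BP2, falls from 58, 77 and 95 counts to 5, 10 and 5, a log2 fold change of -4.06, beside -0.62 for IGF2BP2. H19, the imprinted neighbour of IGF2, has 3 to 10 counts in 1CT and 1 to 7 in 1CT-A. Where a gene and its antisense partner share bases, their reads cannot be told apart without stated use of strand. No shared bases were found for IGF1R and IRAIN in the annotation used, and IGF2BP2 was not searched.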
